A study of Mus musculus with 34 samples.

Results

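H3K4me1 was compared before and after LPS in CTCF-WT bone marrow-derived dendritic cells (BMDCs). Its 2 peak lists, out of 34 samples in the series, are named WT (untreated) and WTLPS (LPS, the bacterial cell wall component, at 100 ng/ml for 3 h). Both came from CreER mice of strain C57BL/6, labelled 8 weeks old, whose bone marrow was cultured for 6 days with GM-CSF. The CreER transgene makes a tamoxifen-activated recombinase in all tissues, and these controls, too, received 4-OH tamoxifen on day 1 of culture, whose Ctcf alleles carry no loxP sites. CreER;CTCFfl/fl cells treated in the same way, named KO and KOLPS, have lost Ctcf, and served here only for comparison. CD11c+ cells had been selected from the culture before LPS was given. GM-CSF cultures hold dendritic cells together with a smaller macrophage-like fraction, and a bulk peak list does not separate a change in the mix of cells from a change within them. Each condition and antibody has 1 peak list, taken to stand for merged replicates, and none for a single replicate, so no difference below was tested, and the 95% Wilson intervals cover counting error only.

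H3K4me1 is the monomethylation of lysine 4 on histone H3. It marks enhancers, both those in use and those that stand ready, while H3K27ac is laid down on enhancers and promoters that are active. LPS binds TLR4, and the signal frees NF-κB, whose subunit p65 (RelA) enters the nucleus and binds κB sites near inflammatory genes. Dendritic cells acquire most of their enhancer landscape from lineage factors such as PU.1 and C/EBP during differentiation, before any microbe is met. The question addressed here is how far LPS added H3K4me1 to regions that lacked it, and whether p65 and H3K27ac were found there.

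The WT list held 94694 broad H3K4me1 peaks and the WTLPS list 89884. A WTLPS peak was counted as WTLPS-only when no WT peak shared at least 1 bp with it, and as distal when it lay outside 2.5 kb either side of every annotated start site (the longest transcript of each of 55413 genes). This left 13526 WTLPS-only distal peaks of the 89884, and, by the same rule, 15983 WT-only distal peaks. p65 peaks overlapped 49 of the 13526. The DNA under a few of these p65 summits is shown first, because it shows what p65 met where H3K4me1 was found only after LPS. Each run below is 101 bases of the plus strand of mm10 (GRCm38, read from the RefSeq assembly) around the summit of the p65 peak, in lower case, and capitals mark a match to GGNNTTTCC, a short form of the κB site, on either strand. Such a match was present in 6 of the 49 windows. The 5 with the highest p65 fold (fragment pileup over local background) are given, named by the nearest protein-coding gene. They are chrX:159744814-159744914, 118 kb from Sh3kbp1, with a p65 fold of 15.1; chr9:23694804-23694904, 403 kb from Npsr1, with 12.9; chr7:113134105-113134205, 106 kb from Arntl, with 5.93; chr3:50033638-50033738, 276 kb from Pcdh18, with 5.39; and chr12:99303033-99303133, 90.7 kb from Foxn3, with 5.21. At Arntl the p65 summit lay just past the edge of the H3K4me1 peak that the p65 peak overlapped. The H3K4me1 peak at Foxn3 lay 9 bp from a WT H3K4me1 peak.
Sh3kbp1: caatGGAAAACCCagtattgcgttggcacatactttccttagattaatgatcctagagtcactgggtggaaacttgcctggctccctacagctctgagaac
Npsr1: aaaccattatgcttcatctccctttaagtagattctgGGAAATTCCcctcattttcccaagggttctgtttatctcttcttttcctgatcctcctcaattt
Arntl: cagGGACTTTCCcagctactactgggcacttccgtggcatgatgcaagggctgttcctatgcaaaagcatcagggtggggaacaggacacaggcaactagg
Pcdh18: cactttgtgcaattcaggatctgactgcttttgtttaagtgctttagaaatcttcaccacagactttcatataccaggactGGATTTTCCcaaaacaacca
Foxn3: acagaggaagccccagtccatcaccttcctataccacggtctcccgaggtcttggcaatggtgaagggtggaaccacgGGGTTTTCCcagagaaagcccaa

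For contrast, 3 p65 sites that already lay in H3K4me1 before LPS are shown, near genes that NF-κB is known to control. They are the p65 sites of highest fold with the same motif within 100 kb of Tnfaip3 (A20, an inhibitor of NF-κB signalling), Cxcl3 (a neutrophil-attracting chemokine) and Il6 (interleukin-6). Of the distal p65 sites with H3K4me1 in both lists in these windows, 2 of 10, 2 of 13 and 1 of 6 had the motif. The Tnfaip3 site also overlapped a p65 peak found before LPS, with a fold of 15.8. Their positions are chr10:19009452-19009552, 5.87 kb from the Tnfaip3 start site, with a p65 fold of 31.3; chr5:90706455-90706555, 79.6 kb from Cxcl3, with 19.9; and chr5:29935906-29936006, 77.2 kb from Il6, with 11.9.
Tnfaip3: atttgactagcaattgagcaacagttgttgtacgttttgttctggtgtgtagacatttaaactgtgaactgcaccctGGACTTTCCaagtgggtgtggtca
Cxcl3: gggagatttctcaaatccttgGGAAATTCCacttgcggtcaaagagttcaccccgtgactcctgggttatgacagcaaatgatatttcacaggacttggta
Il6: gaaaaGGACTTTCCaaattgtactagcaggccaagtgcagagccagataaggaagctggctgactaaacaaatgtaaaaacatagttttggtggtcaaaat

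Over all 4435 distal p65 sites of WTLPS cells, GGNNTTTCC was found within 200 bp windows on the summit at 22.0% (95% Wilson interval 20.8 to 23.2), against 3.61% in windows of the same length 5 kb downstream. Of the p65 summits in WTLPS-only H3K4me1 peaks, 11 of 50 held it (22.0%, 12.8 to 35.2), the same share as at all sites. GAGGAAGT, a core form of the PU.1 site, was found at 1 of these 50 (2.00%, 0.354 to 10.5) and at 8.12% (7.35 to 8.96) of all distal p65 summits, so that the intervals overlapped. TGANTCA, the AP-1 site, was present at 22.0% (12.8 to 35.2) and 20.2% (19.1 to 21.5). A match is a string of letters, not a bound site.

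The 2 lists covered nearly the same amount of genome. WT peaks covered 259 Mb and WTLPS peaks 263 Mb, a ratio of 1.02, and 215 Mb were in both, which is 82.9% of the WT bases and 81.6% of the WTLPS bases. The Jaccard index, the bases in both lists over the bases in either, was 0.698. Among WTLPS peaks 16483 had no WT peak (18.3%, 18.1 to 18.6), and among WT peaks 18996 had no WTLPS peak (20.1%, 19.8 to 20.3). Peaks without a partner were therefore somewhat more frequent in the whole WT list than in the whole WTLPS list. The order was reversed among the 50000 peaks of highest −log10 p in each list, with 20.4% in WT and 22.8% in WTLPS. Promoter peaks lacked a partner less often, with 12.1% (11.7 to 12.5) in either list, than distal ones, with 22.9% (22.6 to 23.2) in WT and 20.7% (20.4 to 21.0) in WTLPS. The WTLPS list had 48.5 Mb outside the WT list, of which 10.3 Mb lay in peaks without a partner and 38.2 Mb (78.7%) at the edges of, or between, peaks that WT cells also had. In the other direction 44.4 Mb of WT peaks lay outside the WTLPS list, of which 74.0% belonged to peaks with a partner.

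Whether a peak had a partner followed its strength and width. When the WTLPS list was split into 10 bins by −log10 p, in the weakest bin, 56.5% (55.5 to 57.5) of peaks had no WT peak, and in the strongest bin 0.300% (0.207 to 0.437), or 27 of 8988. The WT list gave 58.0% (57.0 to 59.0) and 0.718% (0.567 to 0.909). By width, 62.9% (61.8 to 64.1) of WTLPS peaks under 300 bp lacked a WT peak and 1 of 13734 peaks of 5000 bp or more did. In every bin of either split the WT and WTLPS shares lay within a few percentage points of each other. The lowest −log10 p was 2.25 in WT and 2.24 in WTLPS, so the lists ended at almost the same value. Each is an average over a peak, not the calling threshold itself. By the study's own account the WTLPS library had more mapped reads than the WT library. The background that the fold values were set against, recovered from short uniform peaks, was 3.60 fragments per base in WT and 4.08 in WTLPS. The part of depth in these shares was not tested.

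**Figure D1:**
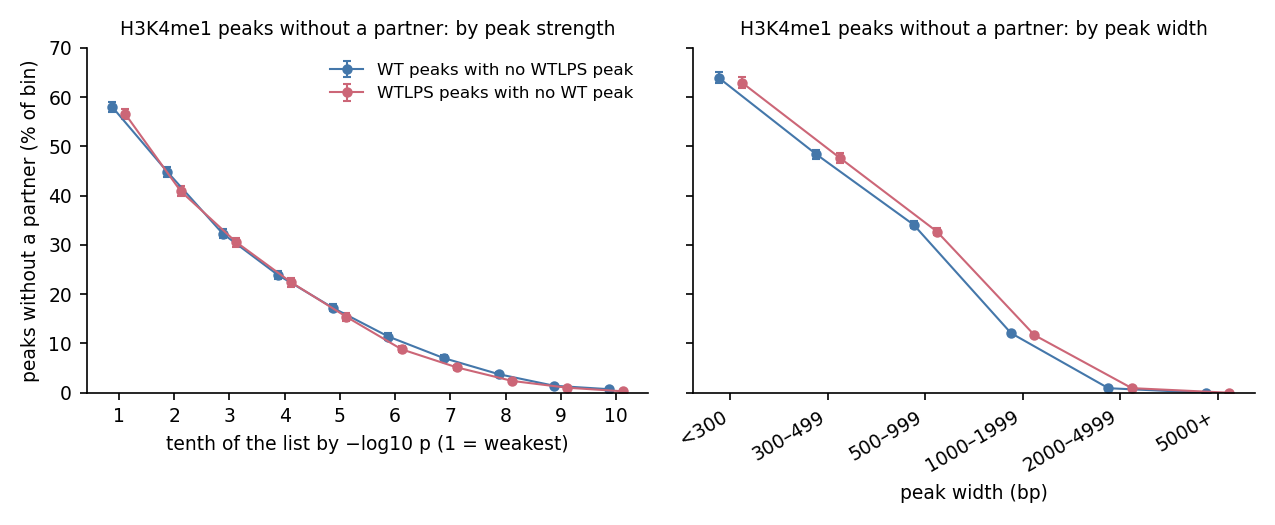
Share of H3K4me1 peaks without a partner in the other list (y axis, percent of the peaks in each bin) in 10 bins of the list ordered on −log10 p (left) and by peak width in bp (right), with 95% Wilson intervals. Blue points are WT peaks and red points WTLPS peaks, set side by side in each bin; both curves fall from above 50% in the weakest bin to under 1% in the strongest, with similar shares in either list.

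The WTLPS-only distal peaks were narrow and weak, and so were the WT-only ones. WTLPS-only peaks had a median width of 479 bp (quartiles 299 and 831) and a median fold over background of 2.28 (2.20 and 2.41). WT-only peaks had a median width of 467 bp (291 and 807) and a median fold of 2.31 (2.22 and 2.44). Shared distal peaks of the WTLPS list were 1831 bp wide (925 and 3502) with a fold of 2.61 (2.39 and 2.90). The WTLPS-only peaks covered 8.40 Mb in all and the WT-only ones 9.70 Mb, beside 151 Mb in shared distal peaks of the WTLPS list. Of the WTLPS-only peaks 51.2% lay in introns, 10.9% touched an exon and 37.9% were outside genes, and the WT-only peaks gave 52.1%, 10.6% and 37.2%. The median distance to a protein-coding start site was 35.4 kb and 37.9 kb. Many were near H3K4me1 of the other condition: 24.2% of WTLPS-only peaks lay within 1 kb of a WT peak and 84.5% within 10 kb, with 23.9% and 82.7% for WT-only peaks. In the middle 500 bp, the median GC content was 40.8% in WTLPS-only, 39.4% in WT-only and 42.2% in shared peaks. GGNNTTTCC was found in 7.58% (7.14 to 8.04) of the WTLPS-only and 6.13% (5.77 to 6.51) of the WT-only windows, but 5 kb downstream in 7.53% (7.10 to 7.99) and 7.43% (7.03 to 7.85). GAGGAAGT was present in 5.09% (4.74 to 5.48), 4.51% (4.20 to 4.84) and, in shared peaks, 6.25% (6.05 to 6.46), against 3.09% to 3.21% in windows 5 kb downstream of the 3 groups.

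The WTLPS-only peaks of highest fold carried no p65. The highest was in an intron 11.2 kb from Ybx3, which encodes a cold-shock domain protein that binds nucleic acids, at chr6:131376929-131377596, with a fold of 5.23. Of the 30 peak lists examined, this was the 1 with a peak there. The next were near Dscam (a cell adhesion molecule; fold 3.71), Spred1 (an inhibitor of Ras signalling; 3.61) and Akap7 (an anchor for protein kinase A; 3.60). Those near Cyb561, Esr2 (oestrogen receptor beta), Siglecf (a sialic acid-binding lectin), Usp8 (a deubiquitinase), Rapgef6 and Ralgapa2 had folds of 3.43 to 3.52. Of these 10 peaks, 2 overlapped H3K27ac in WTLPS and not in WT, near Akap7 and Esr2, and 1, near Usp8, in WT and not in WTLPS. Among the same 10, 3 overlapped H3K4me1 in KO cells. The 5 WT-only peaks of highest fold, nearest to Cdk2ap1, Fbxo47, Phax, Dcaf12l2 and Gm4070, had folds of 3.92 to 7.38, and none overlapped p65 in WTLPS or H3K27ac in any condition. At each of the first 5 ranks the WT-only peak had the higher fold.

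p65 was rare at peaks found only after LPS, though less rare than at peaks found only before it. It overlapped 49 of 13526 WTLPS-only peaks (0.362%, 0.274 to 0.479) and 16 of 15983 WT-only peaks (0.100%, 0.0616 to 0.163), intervals that did not overlap. Shared distal peaks of the WTLPS list reached 4.67% (4.49 to 4.86), or 2422 of 51851. The groups differ in width, and among peaks of like width the WTLPS-only and shared peaks lay closer together. Among peaks from 500 to under 1000 bp, p65 overlapped 0.521% (0.347 to 0.780) of WTLPS-only, 0.117% (0.0537 to 0.255) of WT-only and 0.555% (0.418 to 0.737) of shared peaks. Among peaks from 1000 to under 2000 bp the shares were 0.721% (0.430 to 1.21), 0.184% (0.0714 to 0.471) and 1.31% (1.13 to 1.51). Before LPS, p65 peaks overlapped 1 of the 13526 and 1 of the 15983.

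The 49 p65-bound peaks were as weak in H3K4me1 as the WTLPS-only peaks in general, with a median fold of 2.36 (2.28 over all 13526), but wider, with a median width of 861 bp (479 bp). Their p65 peaks had a median fold of 6.40, beside 7.01 over all distal p65 peaks. They lay in introns (22), exons (3) or outside genes (24), 3.73 to 403 kb from the nearest protein-coding start site, with a median of 59.4 kb. H3K27ac was present at 17 of them in WTLPS and not in WT, at 5 in both, at 0 in WT alone and at 27 in neither. Of the 2422 p65-bound shared distal peaks of the WTLPS list, the same counts were 329, 1800, 70 and 223. H3K27ac was thus absent from both conditions far more often at the 49, and shared peaks are wider. SMC1, a subunit of the cohesin ring that holds chromatin loops, was present at 4 before LPS and 23 after. Over all WTLPS-only peaks SMC1 was found at 6.32% (5.92 to 6.74) before LPS and 6.20% (5.80 to 6.61) after, and at distal p65 sites with H3K4me1 in both conditions at 76.1% and 91.8%. In KO cells without LPS, 26 of the 49 carried an H3K4me1 peak. Those of highest H3K4me1 fold, from 2.94 down to 2.59, included peaks nearest to Atxn1, Prg4, Gtf2e2, Zfat, Slc10a6, Foxn3, Ccnl1, Gm17555 and Atp10a. That near Prg4 (lubricin), at chr1:150532824-150533752, carried a p65 peak of fold 9.70, H3K27ac and SMC1 in WTLPS and none of these in WT.

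Foxn3, a forkhead repressor, was the one protein-coding gene with 2 p65-bound WTLPS-only peaks within 100 kb, at 13.3 and 90.5 kb from its start site, and both overlapped H3K27ac in WTLPS and not in WT. Both bordered regions already marked before LPS. The nearest WT H3K4me1 peak was 383 and 9 bp away, against a median of 4157 bp for the 49. Over all 21938 protein-coding genes, 107 (0.488%) had at least 1 such peak. The genes that followed Foxn3 by the summed fold of these peaks included Prg4, Ubxn8, Gsr (glutathione reductase), Gtf2e2 (a TFIIE subunit), Smim18, Cyfip2, Fam71b and Med7 (a Mediator subunit), of which several share 1 peak because their windows overlap. Within 100 kb of Prg4, H3K27ac covered 7.89 kb in WT and 37.5 kb in WTLPS, while the H3K4me1 bases differed by 1.35 kb. Among the listed inflammatory and interferon genes, Ebi3 (a subunit of IL-27 and IL-35) and Irf1 (an interferon-regulatory factor) had 1 each. Of the 16 WT-only peaks that p65 overlapped after LPS, 1 lay in an intron 2.85 kb from Tnfaip3, with H3K27ac in all 4 conditions. There p65 overlapped only the edge of an H3K4me1 peak listed before LPS and not after, and the p65 summit lay just past that edge. This H3K4me1 peak began 2515 bp from the start site, barely outside the promoter limit.

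H3K27ac was found at similar shares of WTLPS-only and WT-only peaks. In WTLPS cells H3K27ac overlapped 5.86% (5.48 to 6.27) of WTLPS-only and 5.49% (5.15 to 5.86) of WT-only peaks, and in WT cells 4.64% (627 peaks) and 4.22% (675 peaks). H3K27ac in WTLPS without H3K27ac in WT was seen at 3.76% (3.45 to 4.09) of WTLPS-only and at 3.46% (3.19 to 3.75) of WT-only peaks. Shared distal peaks of the WTLPS list had H3K27ac at 26.7% (26.3 to 27.1) in WT and 25.9% (25.5 to 26.2) in WTLPS. At like width, from 500 to under 1000 bp, 6.77% (6.07 to 7.55) of WTLPS-only, 5.72% (5.11 to 6.39) of WT-only and 9.91% (9.29 to 10.6) of shared peaks overlapped H3K27ac in WTLPS. H3K27me3, the mark of Polycomb repression, overlapped 12.1% (11.6 to 12.7), 12.8% (12.3 to 13.3) and 12.5% (12.2 to 12.8) of the 3 groups in WT. Shared peaks are wider, however. In a 1 kb window on the middle of the peak, the shares were 13.5% (12.9 to 14.1), 14.3% (13.8 to 14.8) and 8.86% (8.61 to 9.10), lowest in shared peaks. STAT5, the factor that GM-CSF activates, was found at 0.311% (0.230 to 0.419), 0.275% (0.205 to 0.369) and 7.23% (7.01 to 7.46). The WT cells of the STAT5 list are labelled as given GM-CSF again, unlike those of the H3K4me1 lists. KO cells without LPS had an H3K4me1 peak at 31.3% (30.5 to 32.1) of WTLPS-only peaks, that is, in a culture that never met LPS, and at 28.6% (27.9 to 29.3) of WT-only and 83.7% (83.3 to 84.0) of shared peaks. KOLPS cells had one at 12.7% (12.2 to 13.3), 11.4% (10.9 to 11.9) and 64.9% (64.5 to 65.4).

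**Figure D2:**
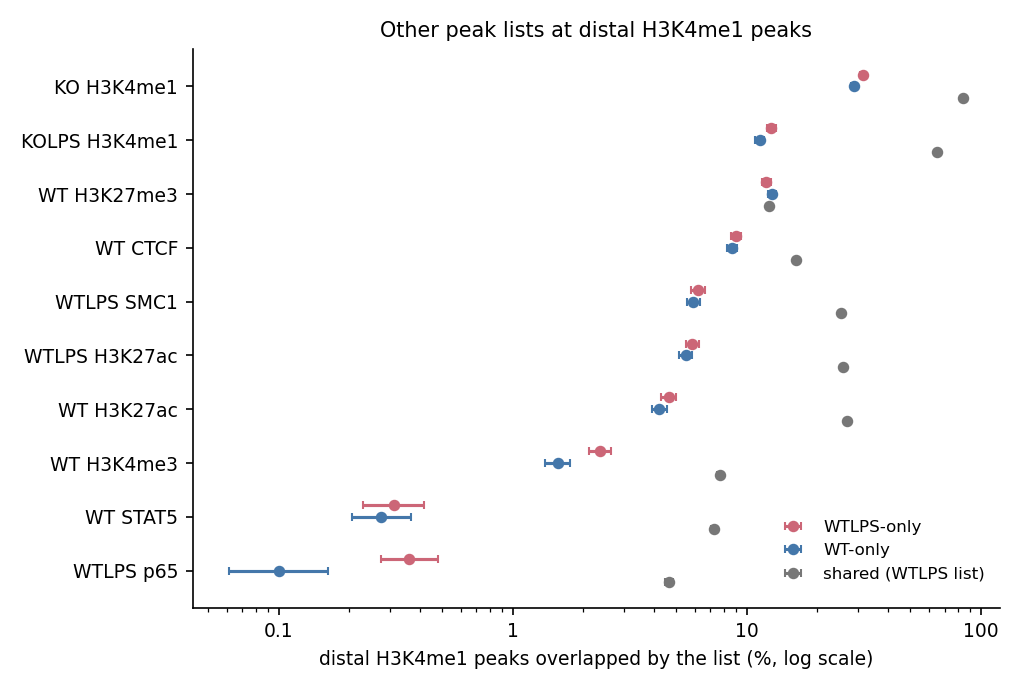
Share of distal H3K4me1 peaks overlapped by at least 1 bp by other peak lists (x axis, percent, log scale; bars are 95% Wilson intervals), for WTLPS-only (red), WT-only (blue) and shared peaks of the WTLPS list (grey). The cells of the STAT5 list had been given GM-CSF again. Red and blue lie close together in most rows and apart at p65 (0.362% and 0.100%) and H3K4me3, while grey lies to the right in all rows but H3K27me3. Overlaps are of whole peaks, and shared peaks are wider. In a 1 kb window on the middle of the peak, WT CTCF overlapped 9.70% of red, 9.35% of blue and 9.02% of grey peaks.

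Seen from p65, H3K4me1 was in place before LPS at nearly all sites. Of the 4435 distal p65 peaks in WTLPS cells, 91.8% (90.9 to 92.5) overlapped an H3K4me1 peak in untreated WT cells and 93.5% (92.7 to 94.2) in WTLPS cells. Of the 3855 that had no p65 peak in WT, the shares were 90.9% (89.9 to 91.7) and 92.9% (92.0 to 93.6). Both lists marked 4017 sites, WTLPS alone 129 (2.91%, 2.45 to 3.45), WT alone 53 (1.20%, 0.915 to 1.56) and neither 236 (5.32%). Of the 129, 50 lay in WTLPS-only peaks and 79 in WTLPS peaks that had a WT partner nearby but did not reach the p65 site in WT. The share with H3K4me1 in WT was 84.2% (934 of 1109) among the sites of lowest p65 fold when the sites were split into 4 bins, and 96.3% (1067 of 1108) among those of highest fold. The 236 sites without H3K4me1 had a median p65 fold of 5.39, against 7.55 at the 4017. GAGGAAGT was found at 2.54% (1.17 to 5.43) of the 236 summits and 8.66% (7.83 to 9.57) of the 4017, and GGNNTTTCC at 18.6% (14.2 to 24.1) and 21.9% (20.6 to 23.2). KO cells without LPS had H3K4me1 at 89.9% (89.0 to 90.8) of the p65 sites and KOLPS cells at 75.6% (74.3 to 76.8).

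The size of the H3K4me1 regions around these sites differed little between the conditions. Within 2.5 kb either side of the p65 summit, WT peaks covered 77.4% and WTLPS peaks 78.9% of the bases on average, whereas H3K27ac covered 41.3% and 52.3%. H3K4me1 covered more bases in WTLPS at 1531 sites, fewer at 1166 and as many at 1738, and H3K27ac more at 2685, fewer at 1132 and as many at 618. At the summit itself H3K4me1 covered 89.9% of sites in WT and 92.6% in WTLPS. Both marks were thus more often higher than lower after LPS, H3K27ac more often than H3K4me1. H3K27ac was called as narrow peaks, which dip at the nucleosome-free summit, and H3K4me1 as broad peaks, so that their levels cannot be set against each other directly.

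**Figure D3:**
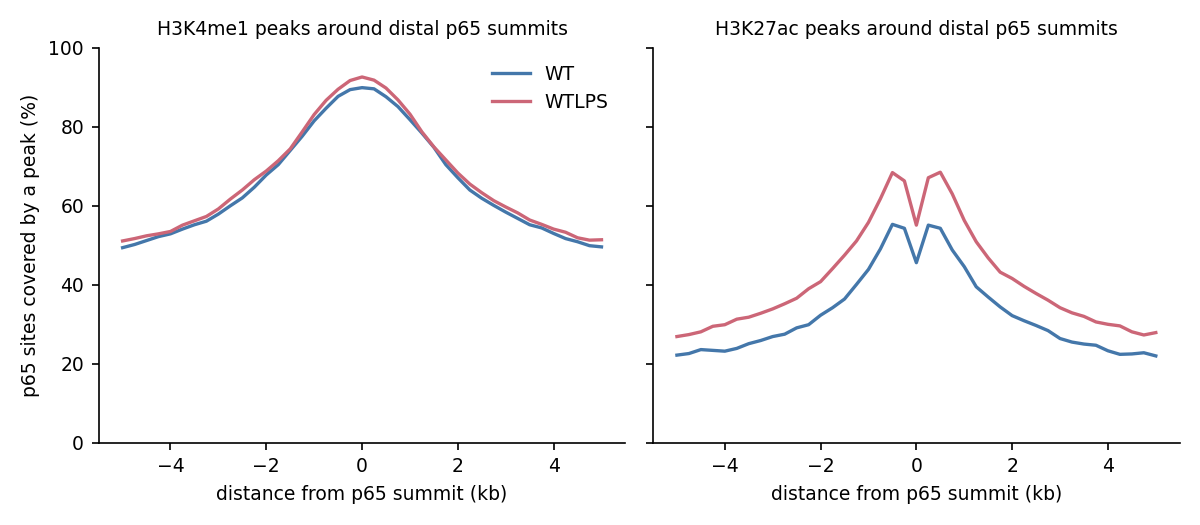
Share of the 4435 distal p65 sites of WTLPS cells covered by an H3K4me1 peak (left) or an H3K27ac peak (right) at each distance from the p65 summit (x axis, kb; y axis, percent of sites), before LPS (WT, blue) and after (WTLPS, red). At the summit the H3K4me1 lines stand at 89.9% and 92.6% and the H3K27ac lines at 45.6% and 55.1%.

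Most distal regions with H3K27ac only after LPS also lay in H3K4me1 before it. Of 28000 distal WTLPS H3K27ac peaks without a WT H3K27ac peak, 68.8% (68.3 to 69.3) overlapped H3K4me1 in WT and 69.3% (68.8 to 69.9) in WTLPS, and 6.59% (6.30 to 6.89) had it in WTLPS and not in WT, beside 6.07% (5.80 to 6.36) with it in WT and not in WTLPS. For the 509 of them with p65, H3K4me1 was present in WT at 91.6% (88.8 to 93.7) and in WTLPS at 95.3% (93.1 to 96.8). Where H3K27ac was listed only before LPS (30714 distal peaks), H3K4me1 stood at 77.2% (76.8 to 77.7) in WT and 78.0% (77.6 to 78.5) in WTLPS. Of these peaks 5.75% (5.50 to 6.02) had it in WTLPS and not in WT, and 4.96% (4.72 to 5.21) in WT and not in WTLPS. H3K4me1 was therefore listed after LPS at most sites whose H3K27ac peak was listed only before it.

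Among shared distal peaks, 39366 pairs joined 1 WT peak to 1 WTLPS peak and to no other. Their median log2 ratio of fold, WTLPS over WT, was 0.00 (quartiles -0.09 and 0.09) and of width 0.01 (-0.37 and 0.42). In the 1568 pairs with p65 the median log2 ratio of fold was 0.04 (-0.04 and 0.10), and the WTLPS peak had the higher fold in 62.4% of them, against 50.9% of the 37798 pairs without p65. The WTLPS peak also had the higher fold in 59.5% of the 6232 distal pairs with H3K27ac in both conditions, whose median log2 ratio was 0.03, and in 54.7% of promoter pairs. Pairs with p65 were wider (medians 4794 and 4872 bp, against 1590 and 1610 bp), and the part of width in this was not tested. In the 2935 pairs with H3K27ac in WTLPS only, the ratio of fold had a median of 0.00 (-0.09 and 0.09), and in the 3251 with H3K27ac in WT only 0.02 (-0.07 and 0.10). The fold of an H3K4me1 region was nearly the same before and after LPS whichever way H3K27ac differed.

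Near genes, a WTLPS-only distal peak was common and told little. Within 100 kb of the start site, 66.0% of the 21938 protein-coding genes had at least 1 WTLPS-only and 68.0% at least 1 WT-only distal peak. Among genes with 50 kb or more of H3K4me1 in that window in WT, the shares were 87.8% and 88.3%. The listed gene groups were close to these values, and the members of a list that lie side by side share peaks. Of 16 inflammatory cytokine genes 15 had a WTLPS-only peak and 15 a WT-only one, with 37 and 45 peaks in all. Il27, which encodes a subunit of IL-27, and Ebi3, its partner, had the most, 6 each, against 4 and 1 WT-only peaks. Of 14 chemokine and chemokine receptor genes found in the annotation, 13 and 12 had one (28 and 26 peaks), with Cxcl1 and Cxcl2 highest at 4 in a window they largely share. All 16 genes of NF-κB subunits and regulators had a WTLPS-only peak and 14 a WT-only one (29 and 38 peaks). In that list Rel, Nfkb2, Nfkbid and Tnfaip3 had 3 WTLPS-only peaks each. For the TLR4 pathway the counts were 12 and 14 of 15 (33 and 42 peaks), led by Irak1, Irak3 and Irf3 with 4. Interferon-stimulated genes gave 13 and 14 of 16 (45 and 48 peaks), led by Ifit3 with 8 and Ifit2 with 7, against 2 WT-only peaks at each. Of 15 genes of costimulation and induced effectors 13 and 14 had one (33 and 50 peaks), and Ch25h, which makes 25-hydroxycholesterol, had 7 against 2. The window of Ch25h overlaps that of Ifit2, so the lists can count the same peaks. Genes were named here for many WTLPS-only peaks, which favours an excess over WT-only ones. Other listed genes went the other way, such as Il1b with 2 against 8 and Ptgs2 with 1 against 7.

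Genes of dendritic and myeloid identity had 16 and 14 of 17 with a peak and 41 WTLPS-only against 31 WT-only peaks, with 5 WTLPS-only peaks each at Csf2rb (the common beta chain of the GM-CSF receptor) and Runx1. Lists of genes that these cells should not use stood near the same values. T and B cell genes gave 10 and 10 of 12 (23 and 25 peaks), led by Tcf7 with 4, and erythroid and non-blood genes 11 and 10 of 12 (22 and 27 peaks), led by Actn2 with 4.

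Covered bases were compared next, and here the excess lay with WTLPS. The median of all protein-coding genes had 28.5 kb of H3K4me1 within 100 kb in WT and 29.3 kb in WTLPS, and the median difference, WTLPS minus WT, was 0.133 kb. Taking 5 kb as a step, a size chosen after the values were seen, 12.0% of genes had at least 5 kb more H3K4me1 in WTLPS and 4.02% at least 5 kb less. For H3K27ac 6.28% had at least 5 kb more and 12.5% at least 5 kb less, with a median difference of 0. Genes with 50 kb or more of H3K4me1 in WT, a level that the medians of 6 of the 9 lists passed, had a median H3K4me1 difference of 1.64 kb, 23.0% and 8.16% of them at least 5 kb higher and lower, and in H3K27ac 16.1% and 31.3%. Inflammatory cytokine genes had a median H3K4me1 of 81.6 kb in WT and a median difference of 1.77 kb, with 2 of 16 at least 5 kb higher and 2 at least 5 kb lower. In H3K27ac their median difference was 11.1 kb, and 15 of 16 were at least 5 kb higher. Il6 had 87.0 kb of H3K4me1 in WT and 76.5 kb in WTLPS, but 44.4 and 93.2 kb of H3K27ac, with 1 p65 peak in the window before LPS and 9 after. Il12b, the p40 subunit of IL-12 and IL-23, had 88.8 and 84.9 kb of H3K4me1 and 23.0 and 52.5 kb of H3K27ac. Ebi3 stood apart in its list with 49.0 and 60.2 kb of H3K4me1, beside 18.3 and 27.6 kb of H3K27ac.

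The other lists differed in how far H3K27ac moved. Chemokine genes had a median H3K4me1 of 92.3 kb in WT and a median difference of 0.180 kb, and 2 of 14 were at least 5 kb higher, Cxcl3 (113 and 119 kb) and Ccr7, the receptor that guides dendritic cells to lymph nodes (80.6 and 91.1 kb). Their median H3K27ac difference was 13.3 kb, and 10 of 14 were at least 5 kb higher. At Cxcl3 H3K27ac covered 21.3 kb in WT and 65.9 kb in WTLPS. Interferon-stimulated genes had a median H3K4me1 difference of -3.17 kb and an H3K27ac difference of 8.24 kb. At Ifit2, which had 7 WTLPS-only peaks, H3K4me1 covered 77.9 kb in WT and 74.4 kb in WTLPS, and H3K27ac 30.7 and 63.3 kb. Costimulation and effector genes had -1.09 kb of H3K4me1 and 12.5 kb of H3K27ac, with Cd86 at 118 and 110 kb of H3K4me1 and at 26.9 and 48.9 kb of H3K27ac. Genes of NF-κB subunits and regulators had 1.06 and 2.03 kb. Among them Tnfaip3 had 133 and 131 kb of H3K4me1, 47.7 and 122 kb of H3K27ac, and 3 and 16 p65 peaks. Of the 16 genes in that list, 5 had at least 5 kb more H3K27ac and 2 at least 5 kb less. Genes of the TLR4 pathway had 0.493 and -2.16 kb, with 3 of 15 at least 5 kb higher in H3K27ac and 4 at least 5 kb lower.

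Genes of dendritic and myeloid identity were the list, of the 9, with the highest median difference in H3K4me1, 4.20 kb, and the lowest in H3K27ac, -5.04 kb. Of its 17 genes 8 had at least 5 kb more H3K4me1 in WTLPS and 1 at least 5 kb less, while 2 had at least 5 kb more and 9 at least 5 kb less H3K27ac. Cebpb, a C/EBP factor of myeloid cells, had 84.7 kb of H3K4me1 in WT and 100 kb in WTLPS, and 59.3 and 52.5 kb of H3K27ac. Csf1r, the receptor of the macrophage growth factor CSF-1, had 58.4 and 65.1 kb of H3K4me1 and 29.4 and 13.4 kb of H3K27ac. Irf8, a factor that dendritic cells need, had 75.0 and 83.7 kb of H3K4me1 and 47.0 and 39.4 kb of H3K27ac. Flt3, the receptor of the dendritic growth factor Flt3 ligand, had 88.6 and 80.6 kb of H3K4me1, the largest deficit in the list. Ciita, Itgax, Csf2ra, Zbtb46 and Itgam also had less H3K4me1 in WTLPS, with differences from -3.62 to -0.367 kb. Among all 2738 protein-coding genes with at least 5 kb less H3K27ac, 27.9% had at least 5 kb more H3K4me1 and 3.58% at least 5 kb less, beside 23.0% and 8.16% of genes with 50 kb or more of H3K4me1 in WT. Among the 1377 genes with at least 5 kb more H3K27ac, the shares were 15.7% and 10.5%, so that here too more genes were higher than lower in H3K4me1. T and B cell genes had median differences of -1.14 kb in H3K4me1 and -0.558 kb in H3K27ac, and erythroid and non-blood genes 0.390 and -0.141 kb.

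**Figure D4:**
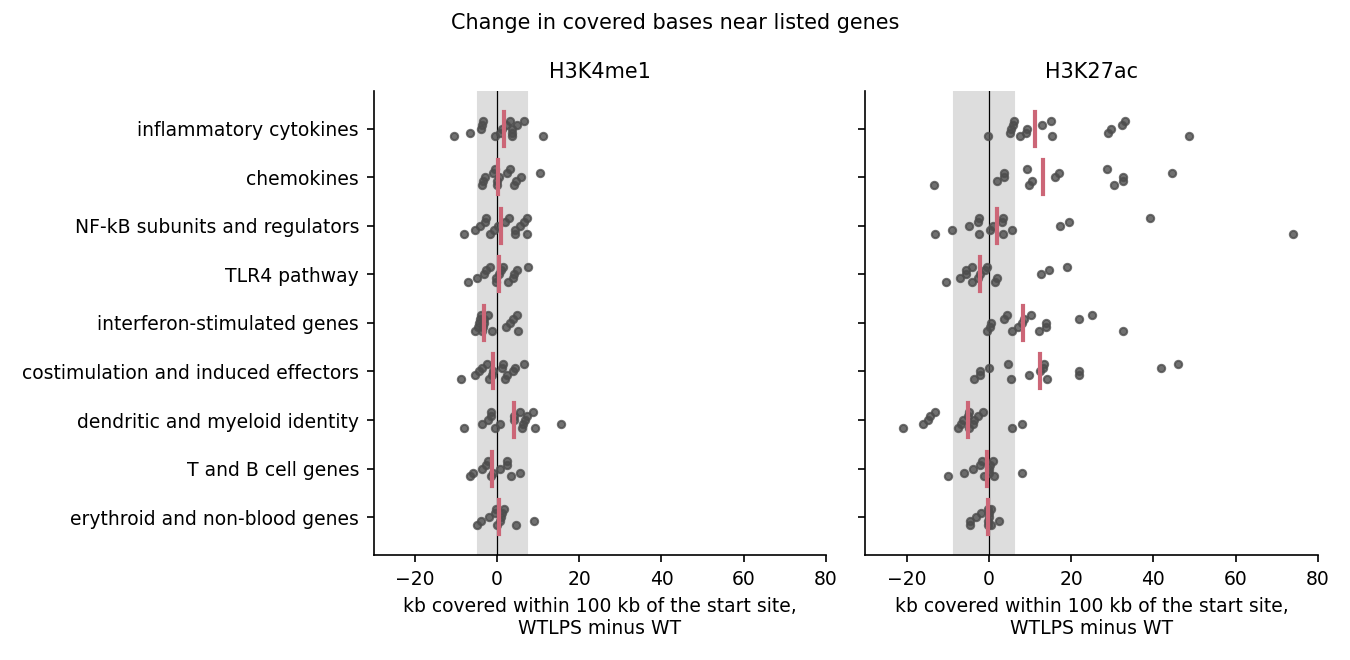
Difference in bases covered by H3K4me1 peaks (left) and H3K27ac peaks (right) within 100 kb of the start site, WTLPS minus WT, in kb on the x axis; each grey point is a gene of the list named on the y axis, red bars are list medians and the grey band holds the 5th to 95th percentile of all protein-coding genes. H3K4me1 points stay between -10.5 and 15.6 kb, while H3K27ac points reach 73.9 kb at Tnfaip3.

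**Figure D5:**
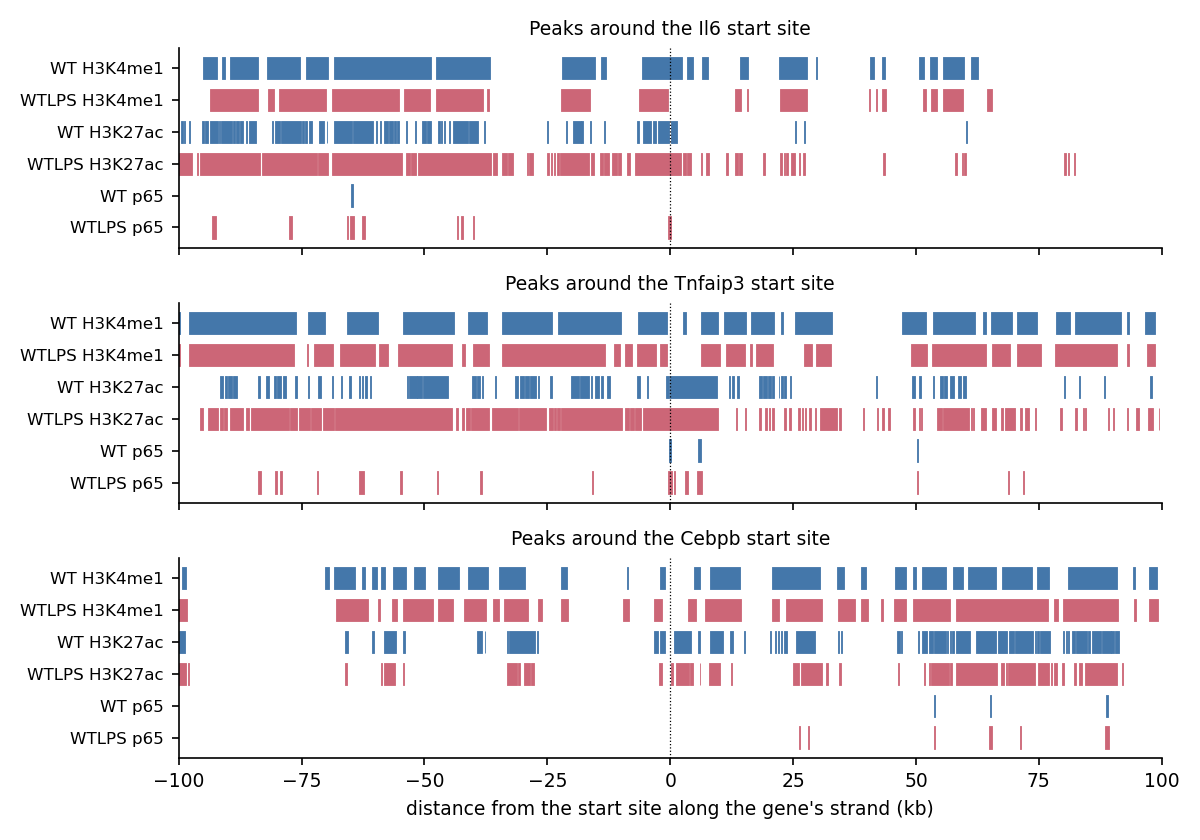
Peaks of H3K4me1, H3K27ac and p65 within 100 kb of the start sites of Il6, Tnfaip3 and Cebpb, by distance along the gene's strand in kb (x axis), before LPS (WT, blue) and after (WTLPS, red). Most H3K4me1 blocks overlap a block of the other condition, but some do not. At Il6 the block that spans the start site in WT ended short of it in WTLPS. Il6 and Cebpb had the lowest and highest H3K4me1 difference of the listed genes (-10.5 and 15.6 kb). p65 peaks number 1 and 9 at Il6, 3 and 16 at Tnfaip3 and 3 and 6 at Cebpb.

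Over all protein-coding genes, the largest excess of H3K4me1 in WTLPS was at Tmsb4x (thymosin beta 4, which binds actin) on the X chromosome, with 70.4 kb in WT and 92.6 kb in WTLPS, followed by its neighbour Tlr8, an RNA sensor (73.1 and 94.6 kb), Lpp (62.7 and 82.9 kb) and Mki67 (65.4 and 84.1 kb). The lowest was at Ptger4, a prostaglandin E2 receptor, with 94.7 kb in WT and 79.0 kb in WTLPS. At the 10 genes with the largest H3K27ac differences, among them Tnfsf15, Tnfsf8, Tnfaip3 and a cluster of Ms4a genes, H3K27ac covered 49.5 to 81.4 kb more in WTLPS and H3K4me1 differed by -5.41 to 4.36 kb.

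As a check of the labels, promoters of all 12 dendritic cell markers (such as Itgax, Cd74, Ciita and Zbtb46) and all 5 macrophage or monocyte markers carried H3K4me3 in both conditions. Of neutrophil markers 1 of 5 did, of T cell markers 1 of 5, of B cell markers 2 of 5, of NK cell markers 0 of 3, of erythroid markers 2 of 3 and of mast cell markers 1 of 3, the same counts in WT and WTLPS. Over all protein-coding genes, 51.1% of start sites lay in H3K4me3 peaks in WT and 51.3% in WTLPS. Counts from lists of 3 to 5 genes near that share tell little. The peak lists therefore do not separate dendritic cells from macrophages in these cultures.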

How the data were processed

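ChIP-seq had been done on fixed, sonicated BMDCs with libraries made by tagmentation and paired-end sequencing. After trimming, alignment to mm10 and removal of duplicates, peaks were called by the authors with MACS2; the input libraries served as background. The study gives the broad option for H3K27ac and H3K27me3, but the deposited H3K27ac lists have the narrow format and the H3K4me1 lists the broad one. The submitters' processing notes give BWA 0.7.12, Picard 1.77 and MACS2 2.1.2, and the study's methods later versions. The study states that replicates were merged for the final data, so each list is taken to stand for pooled replicates, and gives total and mapped reads for each library, which are not used here as values; of the H3K4me1 libraries WTLPS had the most mapped reads, followed by KO, WT and KOLPS. The deposited broad peaks hold a fold ratio over local background, −log10 p and −log10 q, each averaged over the region, and a score, which was not used. The labels name antibody ab8895, while the files name their H3K4me1 peaks with the initials of another supplier.

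Members and gene lists were chosen with earlier results of these data known. Overlaps needed 1 bp; promoters were 2.5 kb either side of GENCODE vM21 start sites; genes were read within 100 kb. No peak passed a chromosome end of GRCm38, and 51.1% of protein-coding start sites lay in WT H3K4me3 peaks. Named genes were the members of the lists with the most WTLPS-only peaks, the 10 genes with the most p65-bound ones, and the genes nearest to the strongest peaks; genes with the largest covered-base differences, and those given as examples of covered bases, were chosen after their values were seen, as were the 3 p65 sites shown for contrast. The background level was the commonest value at which fold and −log10 p of a peak matched a Poisson tail (within 0.002; 5.13% of WT and 4.68% of WTLPS peaks). Wilson intervals are at 95%. No test was run. The interval functions gave the right answer on 20 of 20 simulated sets. Python 3.11.15, numpy 2.4.6, pandas 2.3.3 and scipy 1.17.1 were used. Relb stands in 2 of the gene lists. 1 gene that the naming rule picked is not reported here.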

Additional observations from a re-analysis of the deposited data

Results flagged for a closer look

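The ratio of H3K4me1 covered bases, LPS over untreated, was 1.02 in CTCF-WT cells and 0.640 in CTCF-KO cells. Under the same treatment the amount was thus nearly the same in CTCF-WT and lower in CTCF-KO cells, and the difference was not tested. KO peaks covered 232 Mb and KOLPS peaks 149 Mb. The background recovered from short peaks moved with it: 3.60 and 4.08 fragments per base in WT and WTLPS, and 4.00 and 2.95 in KO and KOLPS. By the study's account KOLPS was also the H3K4me1 library with the fewest mapped reads, and WTLPS the one with the most. The part of depth in the ratio was not tested.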

How the results depend on the processing

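Leaving out chromosomes X and Y moved none of the main values it applied to beyond its counting interval (X and Y were not left out of the gene count). Cutting both H3K4me1 lists at the same lowest −log10 p could change little, because those values were 2.25 in WT and 2.24 in WTLPS. It left 13524 WTLPS-only and 15985 WT-only distal peaks, so it says nothing about a stricter threshold. With the 50000 strongest peaks of each list, 22.8% of WTLPS peaks had no WT peak, the Jaccard index was 0.704, p65 overlapped 1.56%, H3K27ac 13.4% and KO H3K4me1 73.8% of WTLPS-only distal peaks, 85.8% of distal p65 sites had H3K4me1 in WT, and 53.2% of genes had a WTLPS-only peak. With at least 50% of a peak covered by the other list, the same measures (the Jaccard index aside) were 30.8%, 0.698%, 8.28%, 45.4%, 89.9% and 75.9%; at p65 sites the 50% applied to the p65 peak. With a partner allowed within 1 kb, 14.0% of WTLPS peaks had none, KO H3K4me1 overlapped 29.8% and 59.1% of genes had a peak. With peaks within 1 kb merged, the values were 18.0% without a partner, a Jaccard index of 0.706 and 64.0% of genes. In a 1 kb window on the middle of the peak, H3K27ac overlapped 6.52% and KO H3K4me1 33.3%. The share of genes was 69.9% with promoters of 1 kb, 60.3% with promoters of all transcripts, and 46.7% and 80.2% with windows of 50 and 200 kb. Among the 50000 strongest peaks of each list, 20.4% of WT peaks had no WTLPS peak, below the 22.8% of WTLPS peaks. The main setting had the opposite order. An alternative chosen after seeing the data set the 50000 strongest WTLPS peaks against the whole WT list: 4.61% had no WT peak, and p65, H3K27ac and KO H3K4me1 overlapped 0.765%, 6.56% and 41.9% of the 1830 WTLPS-only distal ones. By construction that setting enlarges the WT-only group to 34376 peaks, and H3K27ac and KO H3K4me1 were then more frequent in WT-only peaks (8.33% and 49.5%). p65 was more frequent in WTLPS-only than in WT-only peaks in 10 of 10 settings. As a ratio, though not in percentage points, the gap narrowed from 0.362% against 0.100% in the main setting. With the 50000 strongest peaks of each list it was 1.56% against 0.779%. In the setting chosen after seeing the data it was 0.765% (14 peaks) against 0.500% (172 peaks). No paired analysis was possible because each condition has 1 peak list. The peak lists carry no read counts, so a weak peak found in 1 condition cannot be told apart from one missed in the other.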
